A study of Homo sapiens with 2 samples.

Results

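The miR-30 family is a group of human microRNAs made from 6 hairpin genes. Both arms of its hairpins were examined here as 10 mature microRNAs: 5 from the 5p arm (hsa-miR-30a-5p, hsa-miR-30b-5p, hsa-miR-30c-5p, hsa-miR-30d-5p and hsa-miR-30e-5p) and 5 from the 3p arm (hsa-miR-30a-3p, hsa-miR-30b-3p, hsa-miR-30c-2-3p, hsa-miR-30d-3p and hsa-miR-30e-3p). They were taken by name from a count table of 2656 mature microRNAs, and all 10 had more than 3 counts in each library. The remaining 3p arm, hsa-miR-30c-1-3p, is not one of the 10 and is given only where the sixth hairpin is described. The study sequenced small RNA from MDA-MB-231, a human triple-negative breast cancer cell line, with 1 library from cells transduced with shELOVL5, a short hairpin RNA against the fatty acid elongase gene ELOVL5, and 1 from cells transduced with the control hairpin shLuc. Both cultures were grown in high-glucose DMEM with 10% fetal bovine serum and 2 mM L-glutamine. The labels do not say whether the transduced cells were a pool or a clone. The extraction text speaks of frozen tumour material, while every other label describes the cell line. ELOVL5 messenger RNA was not measured here, so the knockdown could not be checked.

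A microRNA hairpin is cut by Drosha and then Dicer into a duplex of a 5p and a 3p strand. One strand, the guide, is usually kept by an Argonaute protein and finds target messages through its seed (bases 2 to 8), while the other, the passenger, is mostly degraded. In the miR-30 family the 5p strand is usually called the guide, and its members share a seed and therefore much of their target repertoire. The family is known to repress SNAI1, a transcription factor of the epithelial-mesenchymal transition, to restrain breast tumour-initiating cells, to target the autophagy gene BECN1 (miR-30a) and to favour fat cell differentiation.

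The mature sequences are shown because they define which members act as one seed group and which are hard to tell apart by sequencing. RefSeq (GRCh38.p14) held 6 of the 10 members, and hsa-miR-30b and hsa-miR-30d are named only. The seed is in capitals in each line.
hsa-miR-30a-5p: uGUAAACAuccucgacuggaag
hsa-miR-30e-5p: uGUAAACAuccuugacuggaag
hsa-miR-30c-5p: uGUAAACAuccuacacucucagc
hsa-miR-30a-3p: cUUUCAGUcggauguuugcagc
hsa-miR-30e-3p: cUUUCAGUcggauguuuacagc
hsa-miR-30c-2-3p: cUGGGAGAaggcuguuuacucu
hsa-miR-30c-1-3p: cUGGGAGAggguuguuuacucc

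The 3 matched 5p members shared 1 seed, GUAAACA, and no other mature microRNA in the RefSeq table had it. The 4 matched 3p arms, hsa-miR-30c-1-3p included, fell into 2 seed groups. hsa-miR-30a-3p and hsa-miR-30e-3p shared UUUCAGU, and the 3p arms of both miR-30c hairpins shared UGGGAGA. The seed UGGGAGA also occurs in hsa-miR-6788-5p, which had 0 counts in both libraries. The miR-30a and miR-30e hairpins are nearly identical over their mature strands: counted from the 5′ end, the 5p strands differ only by C13U and the 3p strands only by G18A (miR-30a base first). hsa-miR-30c-5p differs from hsa-miR-30a-5p at 5 of the 22 bases compared, first at position 13, so the differences among these 3 guides lie outside the seed. The mismatch setting of the alignment is not given in the sources used here, and sharing of reads between miR-30a and miR-30e was not tested. The letters UGUUUAC, the reverse complement of the 5p seed, were found on the RNA strand in 3 of 2370 mature microRNAs (0.127%): hsa-miR-30e-3p and the 3p arms of both miR-30c hairpins. hsa-miR-30a-3p has UGUUUGC in the same place. RefSeq held no strand of hsa-miR-30b or hsa-miR-30d, so whether their 3p arms hold these letters was not looked up.

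The 6 genes lie in 3 pairs. Positions are on GRCh38 from GENCODE release 29, and the deposited table itself holds none. MIR30A (chromosome 6, 71403551 to 71403621, minus strand) and MIR30C2 (chromosome 6, 71376960 to 71377031, minus strand) are 26.5 kb apart, and both overlap introns of the long non-coding RNA genes LINC00472 and AL136164.2. MIR30E (chromosome 1, 40754355 to 40754446, plus strand) and MIR30C1 (chromosome 1, 40757284 to 40757372, plus strand) are 2.84 kb apart in introns of NFYC, which encodes a subunit of the CCAAT-binding factor NF-Y. MIR30B and MIR30D are 4.27 kb apart on the minus strand of chromosome 8, and no other gene in the annotation spans either of them.

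The shELOVL5 library held 6811811 microRNA counts and the shLuc library 7109272. Levels are counts per 1000000 counts (CPM) scaled by TMM, a factor that balances the libraries on their common microRNAs, and ratios are shELOVL5 over shLuc. With 1 library per condition there is no replicate check and no p-value, and the 95% intervals given for shares and ratios cover counting error only. A microRNA was called expressed at a mean of at least 50 CPM with at least 100 counts over both libraries, which 191 microRNAs and 8 of the 10 miR-30 members reached. hsa-miR-30b-3p and hsa-miR-30d-3p were below that limit. Of 20 markers of blood, stromal, muscle, liver, neuronal and epithelial cells, 4 were expressed and 3 were at 0 in both libraries, and the summed list amounted to 0.130% of all shELOVL5 counts and 0.122% of all shLuc counts. The 4 were hsa-miR-486-5p (2146 counts in shELOVL5, 2788 in shLuc), hsa-miR-126-3p (5175 and 4394), hsa-miR-9-5p (634 and 771) and the epithelial hsa-miR-200c-3p (450 and 467), while the epithelial hsa-miR-141-3p had 7 and 3 counts and hsa-miR-205-5p 3 and 2. Below the expression limit, the blood markers hsa-miR-142-5p (84 and 6 counts) and hsa-miR-142-3p (45 and 2) and the muscle marker hsa-miR-206 (155 and 69) were higher in shELOVL5, and the muscle marker hsa-miR-1-3p (14 and 80) was lower. The part of other cells in the miR-30 values was not tested.

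The miR-30 family was abundant in both libraries. The 10 members together had 372306 counts in shELOVL5, 5.47% of the library (exact Clopper-Pearson interval 5.45 to 5.48%), and 398995 counts in shLuc, 5.61% (5.60 to 5.63%). The 5p members made up 93.3% of the family counts in shELOVL5 and 93.2% in shLuc. The division between the arms of the family as a whole was therefore close in both libraries: the ratio of summed 3p to summed 5p counts changed by a factor of 0.986 (0.969 to 1.00), an interval that includes no change.

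Among the 5p guides, hsa-miR-30a-5p was the most abundant, with 165084 counts, or 24281 CPM, in shELOVL5 against 173258 counts, or 24324 CPM, in shLuc. It ranked ninth among all mature microRNAs in both libraries. hsa-miR-30d-5p followed with 111121 counts (16344 CPM) and 126196 counts (17717 CPM). hsa-miR-30c-5p, which can come from either of 2 hairpins, had 60042 counts (8831 CPM) and 61471 counts (8630 CPM). These 3 guides supplied 96.8% of the 5p counts in shELOVL5 and 97.1% in shLuc.

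The other two guides were far less abundant. hsa-miR-30e-5p had 8360 counts (1230 CPM) with shELOVL5 against 8451 (1186 CPM) with shLuc, so hsa-miR-30a-5p, which differs from it by a single base, was 19.7 and 20.5 times as abundant. hsa-miR-30b-5p had 2664 counts (392 CPM) and 2434 counts (342 CPM). Its gene neighbour hsa-miR-30d-5p was 41.7 times as abundant in shELOVL5 and 51.8 times in shLuc. The 5p level thus spanned 62.0-fold in shELOVL5 and 71.2-fold in shLuc between the most and the least abundant guide. All members printed above are 22 or 23 bases long, so their levels need no correction for length, but differences in ligation between sequences were not measured.

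**Figure D1:**
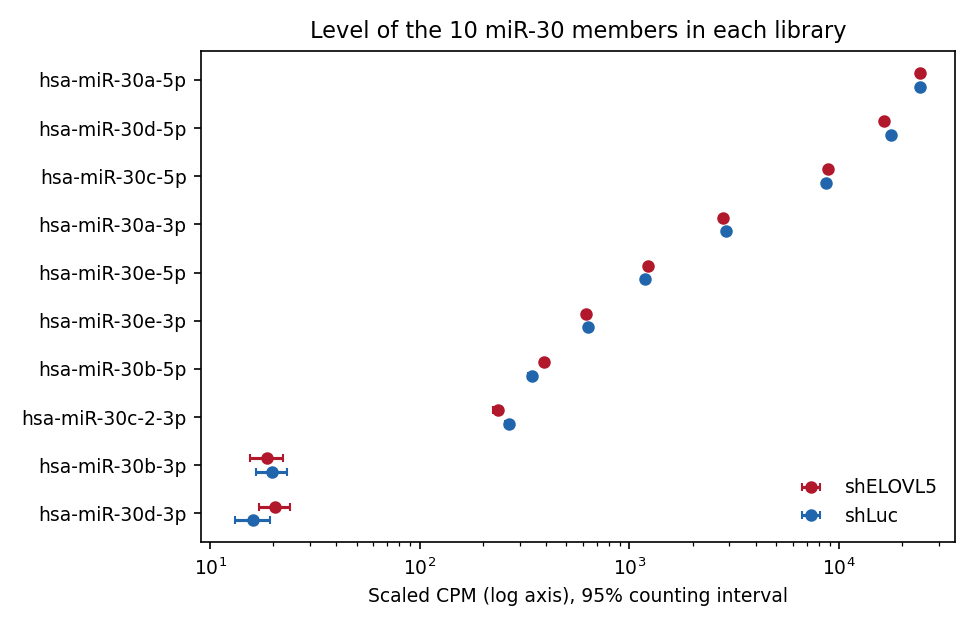
Level of each of the 10 miR-30 members in scaled CPM (log axis) in shELOVL5 (red) and shLuc (blue), 1 library each, with 95% counting intervals. Members span from 24324 CPM (hsa-miR-30a-5p in shLuc) to 16.0 CPM (hsa-miR-30d-3p in shLuc), while the points of the 2 libraries lie close together within each member.

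Of the 3p strands, hsa-miR-30a-3p was the most abundant, with 18962 counts (2789 CPM) with shELOVL5 against 20506 (2879 CPM) with shLuc. It exceeded the guides hsa-miR-30e-5p and hsa-miR-30b-5p in both libraries. hsa-miR-30e-3p had 4202 counts (618 CPM) and 4526 counts (635 CPM), which was also above hsa-miR-30b-5p. hsa-miR-30c-2-3p had 1605 counts (236 CPM) and 1899 counts (267 CPM).

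The 3p strands of the chromosome 8 pair were the rarest members. hsa-miR-30b-3p had 127 counts (18.7 CPM) with shELOVL5 against 140 (19.7 CPM) with shLuc, and hsa-miR-30d-3p had 139 counts (20.4 CPM) and 114 counts (16.0 CPM). The order of the 10 levels was the same in both libraries except for this last pair, which changed places. Their counts could not be separated within a library: hsa-miR-30d-3p was 1.09 times hsa-miR-30b-3p in shELOVL5 (0.854 to 1.40), and hsa-miR-30b-3p was 1.23 times hsa-miR-30d-3p in shLuc (0.952 to 1.59). The other 8 neighbouring pairs in each order differed by more than counting error.

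The first comparison asked whether the guide pool differed between cells with the ELOVL5 hairpin and control cells. Summed 5p counts were 347271 (51078 CPM) in shELOVL5 and 371810 (52200 CPM) in shLuc, a ratio of 0.979 (0.974 to 0.983). The 5p ratio lay between 0.934 and 0.979 under the 4 library scalings tried. With TMM its place below 1 rests on hsa-miR-30d-5p: without that member the sum of the other 4 guides had a ratio of 1.01 (1.00 to 1.01), which fell on either side of 1 depending on the scaling (0.961 to 1.01). Summed 3p counts were 25035 (3682 CPM) and 27185 (3817 CPM), a ratio of 0.965 (0.948 to 0.982), and 0.953 without hsa-miR-30a-3p.

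No expressed miR-30 member differed by 2-fold or by 1.5-fold, and none by 0.32 on the log2 scale, the smallest rule used, in either direction. Over all 191 expressed microRNAs, 1.57% differed by 2-fold, 4.71% by 1.5-fold (4.19% higher and 0.524% lower) and 21.5% by 0.32 on the log2 scale (15.2% higher and 6.28% lower). The median log2 ratio of the 8 expressed members was -0.021, against 0.0087 over all expressed microRNAs, whose middle 50% lay between -0.14 and 0.21. Relative to all expressed microRNAs, the members thus sat near the centre.

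The individual guides did not share one ratio. hsa-miR-30b-5p stood highest, at 1.15 (1.08 to 1.21), a log2 ratio of 0.20. hsa-miR-30d-5p was the lowest guide at 0.922 (0.915 to 0.930), a log2 ratio of -0.12. Both kept their direction under all 4 scalings. Each alternative scaling lowers every ratio, so this was a check for hsa-miR-30b-5p only. hsa-miR-30a-5p stood at 0.998 (0.992 to 1.00). hsa-miR-30c-5p stood at 1.02 (1.01 to 1.03) and hsa-miR-30e-5p at 1.04 (1.01 to 1.07), but both fell below 1 under DESeq2 size factors, and hsa-miR-30c-5p also with TMM computed on all microRNAs. The DESeq2 factors were 1 for both libraries, so that setting compares raw counts without correcting for the smaller shELOVL5 total.

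All 3 expressed passengers lay below 1 with the main scaling. They stayed there under the others, which could not be otherwise, since each alternative scaling lowers every ratio. hsa-miR-30c-2-3p was the lowest of the expressed members at 0.885 (0.828 to 0.947), followed by hsa-miR-30a-3p at 0.969 (0.950 to 0.988) and hsa-miR-30e-3p at 0.973 (0.932 to 1.01). Of the rarest members, hsa-miR-30b-3p stood at 0.950 (0.741 to 1.22) and hsa-miR-30d-3p at 1.28 (0.990 to 1.65). The last, a log2 ratio of 0.35, passes 0.32, but it rests on 139 and 114 counts and its interval includes 1. Of the 8 expressed members, 3 had an interval below 1 and 3 above it, where 35.1% and 39.3% of all expressed microRNAs did. These counts depend on the scaling: with DESeq2 size factors 6 members lay below and 1 above, beside 95 (49.7%) and 59 of the 191 expressed microRNAs, and with TMM on all microRNAs 5 and 1, beside 80 (41.9%) and 61.

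**Figure D2:**
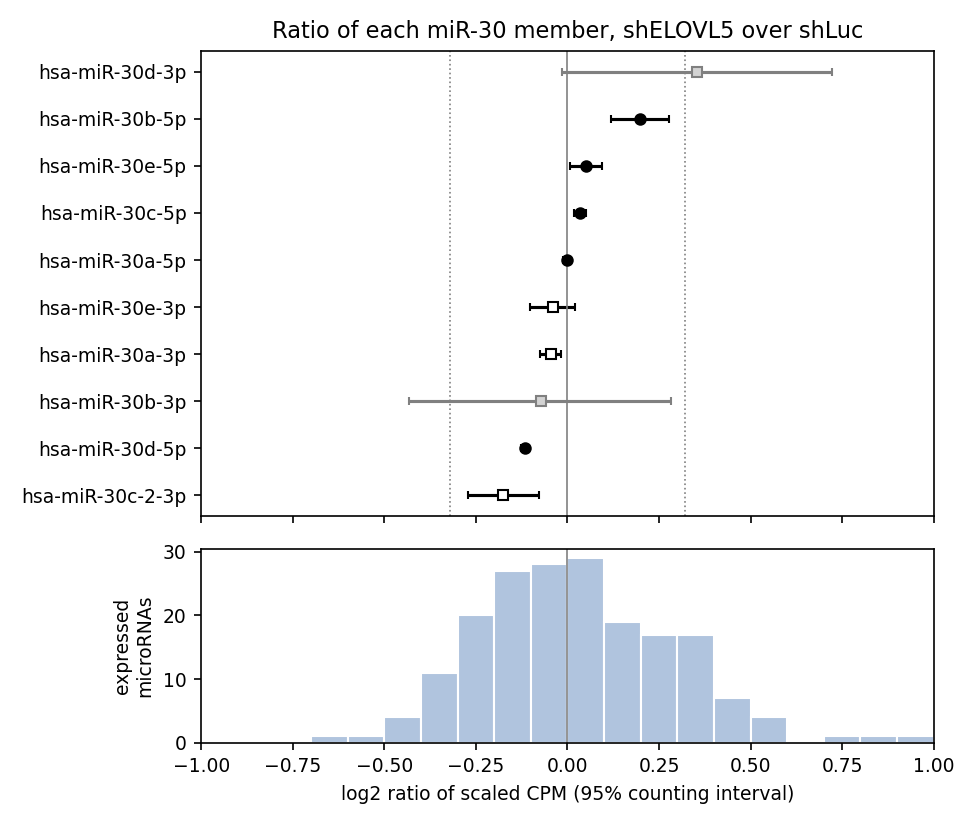
Upper panel, log2 ratio of scaled CPM (shELOVL5 over shLuc) of each miR-30 member with its 95% counting interval; circles are 5p, squares 3p, grey symbols are the members below the expression limit, and dotted lines mark a log2 ratio of 0.32 either way. Lower panel, the same ratio for expressed microRNAs between -1 and 1, from which 3 microRNAs above 1 are left out. The 8 expressed members lie between -0.18 and 0.20, inside the dotted lines.

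Some differences between members do not depend on library scaling, which cancels when 2 microRNAs of the same libraries are compared. The ratio of hsa-miR-30b-5p was 1.24 times that of its neighbour hsa-miR-30d-5p (1.18 to 1.31), so the guides of the chromosome 8 pair did not keep a constant proportion. Between the highest and lowest expressed members, hsa-miR-30b-5p and hsa-miR-30c-2-3p, the factor was 1.29 (1.19 to 1.41). The near-identical guides hsa-miR-30a-5p and hsa-miR-30e-5p differed by a factor of 0.963 (0.934 to 0.993), and their 3p strands by 0.996 (0.951 to 1.04), which includes no difference. In the order of ratios, hsa-miR-30e-5p and hsa-miR-30c-5p could not be separated (1.01, 0.981 to 1.05), nor could hsa-miR-30e-3p and hsa-miR-30a-3p (1.00, 0.958 to 1.05), hsa-miR-30a-5p and hsa-miR-30e-3p (1.03, 0.984 to 1.07), or hsa-miR-30d-5p and hsa-miR-30c-2-3p (1.04, 0.974 to 1.11).

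**Figure D3:**
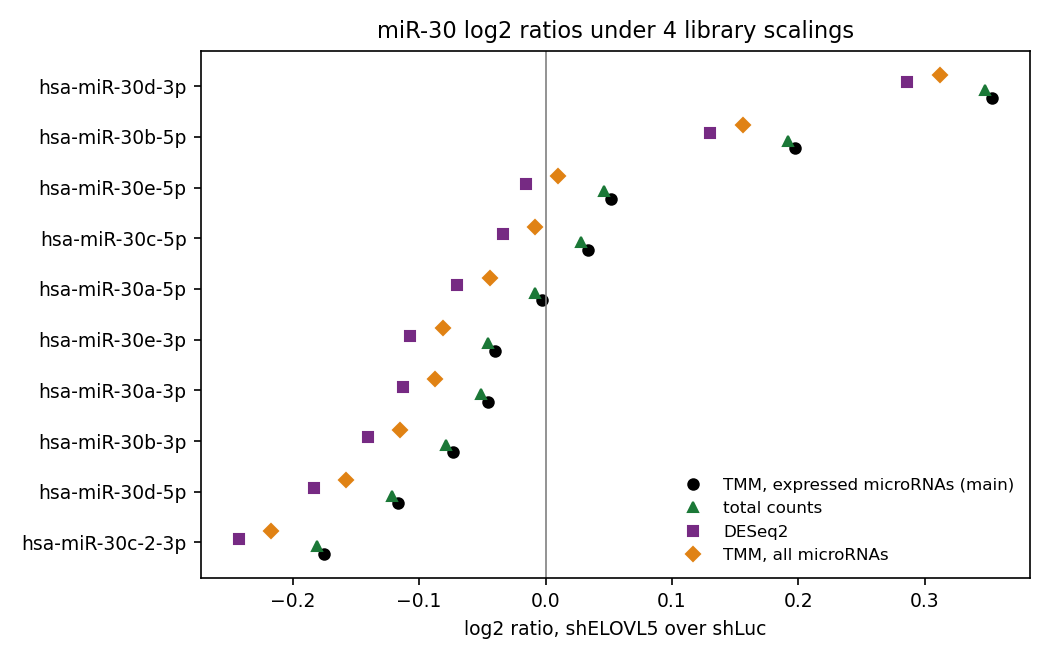
Log2 ratio of each miR-30 member under 4 ways of scaling the libraries (one symbol each). A scaling shifts all members by the same amount, so their order stays fixed while hsa-miR-30c-5p and hsa-miR-30e-5p change sides of 0.

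Seen as shares of the guide pool, which also need no library scaling, hsa-miR-30d-5p gave 32.0% of the 5p counts in shELOVL5 (31.8 to 32.2%) and 33.9% in shLuc (33.8 to 34.1%). hsa-miR-30a-5p gave 47.5% (47.4 to 47.7%) and 46.6% (46.4 to 46.8%), and hsa-miR-30c-5p 17.3% (17.2 to 17.4%) and 16.5% (16.4 to 16.7%). The share of hsa-miR-30d-5p was thus 1.94 percentage points lower in shELOVL5, and that of each other guide was higher by between 0.112 and 0.939 points. hsa-miR-30e-5p held 2.41% and 2.27%, and hsa-miR-30b-5p 0.767% and 0.655%. Shares of one pool sum to a fixed total, so a lower share of one member raises the others.

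The 3p pool had a different make-up. hsa-miR-30a-3p gave 75.7% (75.2 to 76.3%) of the summed 3p counts in shELOVL5 and 75.4% (74.9 to 75.9%) in shLuc. hsa-miR-30e-3p gave 16.8% and 16.6%, although its guide gave under 3% of the 5p pool. hsa-miR-30c-2-3p gave 6.41% (6.11 to 6.72%) and 6.99% (6.69 to 7.29%). hsa-miR-30d, the second most abundant guide, supplied 0.555% and 0.419% of the 3p pool.

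**Figure D4:**
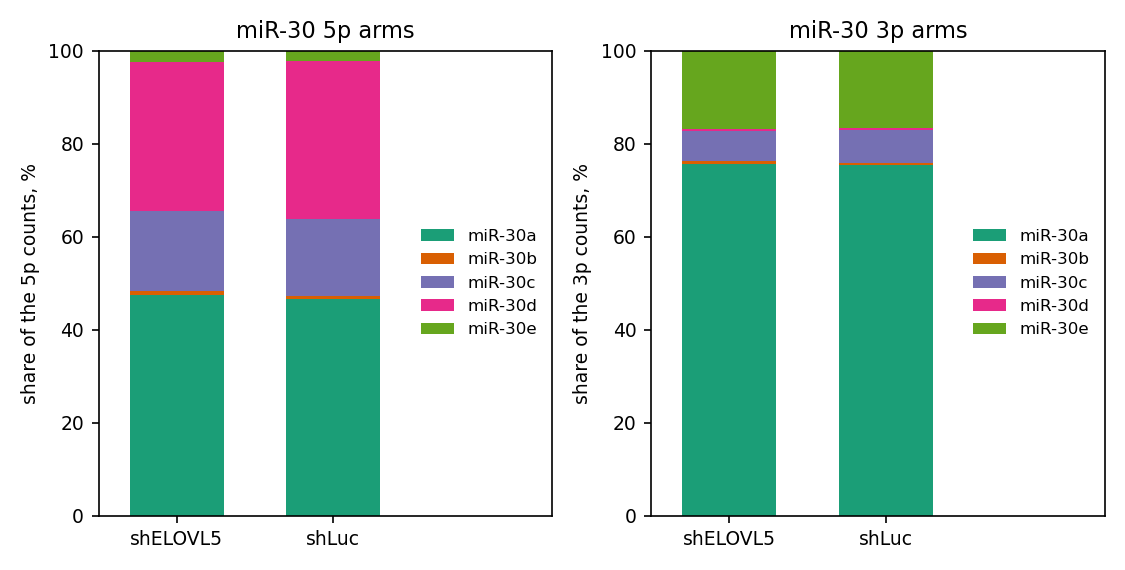
Share of the summed 5p counts (left) and summed 3p counts (right) given by each miR-30 letter in each library, in percent; miR-30c in the right panel is hsa-miR-30c-2-3p only. miR-30a and miR-30d fill most of the 5p bar (47.5% and 32.0% in shELOVL5), while miR-30a and miR-30e fill most of the 3p bar (75.7% and 16.8%).

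The second comparison concerned the balance of arms within each hairpin, that is, the share of its counts from the 3p strand. The 3p share of the hairpin's counts was highest for miR-30e, at 33.5% in shELOVL5 (32.6 to 34.3%) and 34.9% in shLuc (34.1 to 35.7%). miR-30a followed with 10.3% (10.2 to 10.4%) and 10.6% (10.4 to 10.7%). Although their mature strands differ by 1 base per arm, hsa-miR-30a was 19.7 times hsa-miR-30e on the 5p arm in shELOVL5 but 4.51 times on the 3p arm. In shLuc these factors were 20.5 and 4.53.

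The remaining hairpins had lower 3p shares. miR-30b had a 3p share of 4.55% in shELOVL5 (3.81 to 5.39%) and 5.44% in shLuc (4.59 to 6.39%). For the hairpin miR-30c-2 the share was 2.60% (2.48 to 2.73%) and 3.0% (2.87 to 3.13%), with the whole hsa-miR-30c-5p count as its 5p arm. Measured against the same 5p count, the share for miR-30c-1 was 0.221% (0.185 to 0.262%) and 0.255% (0.217 to 0.298%). miR-30d had the lowest share of the 6, 0.125% (0.105 to 0.147%) and 0.0903% (0.0745 to 0.108%). For comparison, 100 hairpins had at least 100 counts on each arm, summed over both libraries. Their less abundant arm had a median share of 4.66% in shELOVL5 and 4.98% in shLuc. Ranked from the highest mean share of the less abundant arm, miR-30e was at place 10 and miR-30d at place 95, in a list that the minimum of 100 counts closes at its lower end.

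The ratio of 3p to 5p within a hairpin is free of library scaling. It was lower in shELOVL5 for miR-30a, by a factor of 0.970 (0.950 to 0.991), for miR-30e, by 0.939 (0.891 to 0.988), and for miR-30c-2, by 0.865 (0.809 to 0.926). For miR-30b the factor was 0.829 (0.648 to 1.06) and for miR-30c-1 it was 0.867 (0.688 to 1.09), intervals that include no change. miR-30d went the other way, at 1.38 (1.08 to 1.77), from 114 3p counts in shLuc and 139 in shELOVL5. miR-30d was the 1 miR-30 hairpin of 6 whose ratio changed by at least 0.32 on the log2 scale, where 27% of all 100 hairpins did. For 4 of the 6 the interval excluded no change, against 46% of all hairpins. Such a call depends on the number of counts as well as on size, so these shares are not like for like. The hairpins miR-30c-1 and miR-30c-2 also share their 5p count. The median log2 change of the 6 was -0.15, and over all 100 hairpins it was -0.056, with the middle 50% between -0.22 and 0.16.

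**Figure D5:**
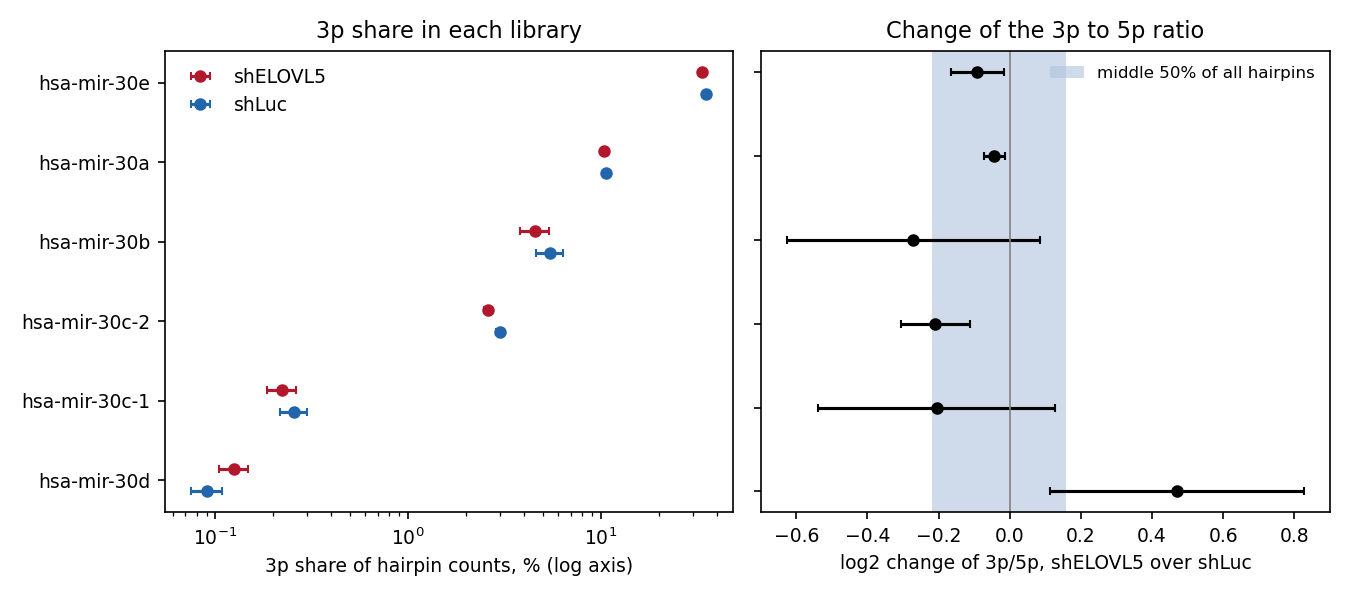
Left, 3p share of each miR-30 hairpin's counts in percent (log axis) in shELOVL5 (red) and shLuc (blue), with exact 95% intervals. Right, log2 change of the 3p to 5p ratio with its 95% counting interval and the middle 50% of all 100 hairpins as a band; miR-30d lies at 0.47 and the other 5 hairpins below 0.

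The last comparison looked at the genes in their pairs, through the 3p strands. Each of these comes from 1 hairpin, which does not hold for hsa-miR-30c-5p. The reads of hsa-miR-30c-5p cannot be divided between its genes: the table lists 59978 counts under the hairpin miR-30c-1 and 60042 under miR-30c-2 in shELOVL5, and 61400 and 61471 in shLuc. These rows differ by 0.107% and 0.116%, and the higher was used in each library. The 3p strands do tell the miR-30c hairpins apart, as they differ at 3 of 22 bases. hsa-miR-30c-1-3p had 133 counts in shELOVL5 and 157 in shLuc, so that hsa-miR-30c-2-3p was 12.1 times as abundant in both libraries. The ratio of hsa-miR-30c-1-3p was 0.887 (0.699 to 1.13), next to 0.885 for hsa-miR-30c-2-3p, and the factor between them was 0.998 (0.785 to 1.27).

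By locus, the summed 3p strands of MIR30A and MIR30C2 had 20567 counts in shELOVL5 and 22405 in shLuc, a ratio of 0.962 (0.944 to 0.980). Those of MIR30E and MIR30C1 had 4335 and 4683 counts, a ratio of 0.970 (0.930 to 1.01). Those of MIR30B and MIR30D had 266 and 254 counts, a ratio of 1.10 (0.920 to 1.31). The 5p strands of this pair also come from 1 hairpin each and had far more counts. hsa-miR-30d-5p, with 111121 and 126196 counts, stood at 0.922, and hsa-miR-30b-5p, with 2664 and 2434, at 1.15. The 3p sum alone therefore does not give the direction of this locus. The same limit holds for the other pairs. On chromosome 1, hsa-miR-30e-5p had 8360 and 8451 counts and stood at 1.04 (1.01 to 1.07), but below 1 with DESeq2 size factors. On chromosome 6, hsa-miR-30a-5p had 165084 and 173258 counts and stood at 0.998 (0.992 to 1.00). Within the chromosome 6 pair the 3p strands differed, with hsa-miR-30c-2-3p at 0.914 times the ratio of hsa-miR-30a-3p (0.853 to 0.980). Within the chromosome 1 and chromosome 8 pairs the intervals included no difference, at 1.10 for hsa-miR-30e-3p over hsa-miR-30c-1-3p (0.867 to 1.39) and 1.34 for hsa-miR-30d-3p over hsa-miR-30b-3p (0.952 to 1.90).

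Against 3 other conserved families, the 5p ratio of miR-30 was 0.924 times (0.919 to 0.929) that of the summed let-7 and miR-98 guides, regulators of RAS and other growth genes, which stood at 1.06 (1.06 to 1.06). It was 0.740 times (0.732 to 0.748) that of the miR-29 family, repressors of collagen genes, at 1.32 (1.31 to 1.34), and 1.04 times (1.04 to 1.05) that of the miR-26 family at 0.937 (0.932 to 0.943). miR-26 also held members on opposite sides of 1, hsa-miR-26a-5p at 0.917 and hsa-miR-26b-5p at 1.28. The expressed let-7 and miR-98 members spanned 0.866 to 1.12, with the most abundant, hsa-let-7i-5p, at 1.03, and then hsa-let-7a-5p (1.10) and hsa-let-7f-5p (1.12). The 2 expressed miR-29 members were hsa-miR-29a-3p at 1.32 and hsa-miR-29b-3p at 1.48. Among the 71 other expressed microRNAs with at least 10000 counts, the 3 nearest in log2 ratio to the miR-30 guide sum were hsa-miR-423-5p at 0.979, hsa-miR-106b-3p at 0.973 and hsa-miR-503-5p at 0.990. Over 2 libraries this likeness is a single number and carries no more than that.

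Other microRNAs of the processes miR-30 is known for were described from lists. The lists were chosen with earlier results of these data known, so their counts and medians describe the lists and test nothing. Of 12 microRNAs known to restrain transcription factors of the epithelial-mesenchymal transition, 6 were expressed, with a median log2 ratio of 0.33. The median over all expressed microRNAs was 0.0087. Of these, 3 were higher in shELOVL5 by at least 0.32 on the log2 scale, where 15.2% of all expressed microRNAs were, and 0 were lower by as much, against 6.28%. The 3 were hsa-miR-200a-3p at 1.76, hsa-miR-200b-3p at 1.35 and hsa-miR-29b-3p at 1.48, and the most abundant of the list, hsa-miR-138-5p, stood at 1.18. The remaining expressed members of the list, hsa-miR-200c-3p at 1.01 and hsa-miR-101-3p at 1.10, stood nearer to no change. hsa-miR-200a-3p had 69.3 CPM in shELOVL5 and 39.5 CPM in shLuc, and its shLuc level alone was below the CPM limit for expression. Its place among the 6 expressed, and so in the count of 3, rests on the library in which it was higher. The median and the count were not recomputed without it. The count of 3 was the same under all 4 scalings. hsa-miR-29b-3p also belongs to the miR-29 family above.

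Of 10 microRNAs known in autophagy, 7 were expressed, with a median log2 ratio of 0.28. hsa-miR-20a-5p at 1.28 and hsa-miR-106b-5p at 1.26 were higher by that rule and hsa-miR-183-5p at 0.724 was lower. The most abundant, hsa-miR-181a-5p, stood at 1.09 and hsa-miR-17-5p at 1.22. Of 14 microRNAs known in fat cell differentiation, 9 were expressed, with a median of 0.25. Here hsa-miR-26b-5p at 1.28, hsa-miR-27a-3p at 1.27 and hsa-miR-365a-3p at 1.27 were higher and hsa-miR-27b-3p at 0.795 was lower, and the most abundant, hsa-miR-26a-5p, stood at 0.917. Over all expressed microRNAs, 15.2% were higher and 6.28% lower by that rule, and the median was 0.0087. With DESeq2 size factors, and with TMM on all microRNAs, 0 of the autophagy list and 0 of the fat cell list were higher by that rule. The 1 of each that was lower stayed so, which a shift lowering every ratio could not change. Of the 191 expressed microRNAs, 29 were higher and 12 lower by that rule with the main scaling. With DESeq2 size factors and with TMM on all microRNAs these counts moved to 18 and 25, and to 19 and 19. With DESeq2 size factors the autophagy and fat cell medians were 0.22 and 0.18, beside -0.058 over all expressed microRNAs.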

How the data were processed

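Small RNA was sequenced as single-end reads of 50 nucleotides from 1 shELOVL5 and 1 shLuc culture, per the labels' protocols (Qiagen miRNeasy kit, NEBNext small RNA libraries). The deposited values are raw, unnormalized read counts for each precursor and mature microRNA, per the file headers. The tools listed, per the submitters' processing notes, are Bowtie 1.1.1, cutadapt 2.10 and FastQC 0.11.9. How reads were counted, with which annotation, mismatches and handling of several matches, is not given in the sources used here. Without molecular identifiers in the labels, PCR copies may be counted repeatedly.

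The highest row per library was kept for each of 166 names listed under several precursors. TMM factors (edgeR 4.0.16, R 4.3.3) came from the 191 expressed microRNAs and were 0.998 for shELOVL5 and 1.00 for shLuc. Ratio intervals are exact Clopper-Pearson intervals of 1 library's share of both counts, rescaled. Intervals of 3p to 5p ratios and of differences between members are Woolf intervals (SciPy 1.17.1). A count of 0 allows 3 counts, which is 0.441 CPM for shELOVL5 and 0.421 for shLuc. The rules of size were 2-fold, 1.5-fold and 0.32 on the log2 scale. Alternatives were scaling by total counts, size factors of DESeq2 1.42.0, other treatments of precursor rows, 5 CPM or 5 counts added, looser filters, and TMM on all microRNAs, the last chosen after seeing the data. The members and lists were chosen with earlier results of these data known. The microRNAs named are all members, those sharing a seed, the 3 most abundant expressed of each list or family, those past 0.32 in a list, and the 3 nearest in ratio. The remaining expressed members of the epithelial-mesenchymal transition list are named too. The single cell type markers and those list members were named after their values were seen. The scripts were tested on simulated counts.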

Additional observations from a re-analysis of the deposited data

How the results depend on the processing

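No paired analysis was possible because there was 1 library for shELOVL5 and 1 for shLuc, so none could be left out either. The 5p ratio of 0.979 was 0.934 with DESeq2 size factors, 0.969 with the sum over precursor rows and 0.951 with TMM on all microRNAs (the last chosen after seeing the data). The 3p ratio of 0.965 was 0.921 with DESeq2 size factors and 0.937 with TMM on all microRNAs. Both stayed below 1, which under the alternative scalings was fixed in advance, since each of them lowers every ratio. The count of members different by at least 0.32 on the log2 scale was 0 of 8, and 1 of 10 (hsa-miR-30d-3p) with a mean of at least 10 CPM or with no filter beyond 1 count, while the 1.5-fold count stayed at 0. The share over all microRNAs was not computed for these looser filters, so the 1 of 10 cannot be judged against a background. Total count scaling shifted every log2 ratio by -0.0055, TMM on all microRNAs by -0.041 and DESeq2 by -0.067. The DESeq2 factors were 1 for both libraries, so that setting leaves the counts unscaled. Over 70 member values recomputed, 13 left the counting interval of the main value, 10 of them under a scaling, and the sign changed in 3: hsa-miR-30c-5p under DESeq2 (-0.034) and TMM on all microRNAs (-0.0082), and hsa-miR-30e-5p under DESeq2 (-0.016). None of 15 changes of a 3p to 5p ratio moved beyond its interval. Most of these could not move: outside miR-30c-2, the precursor-row settings return the main value, which leaves the added 5 counts as the only check. Depth limits the 3p strands of miR-30b, miR-30d and miR-30c-1, and the lack of replicates limits every comparison.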
